A study of Mus musculus with 12 samples.

Results

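The measurements compared here are those of mouse pancreatic islets exposed to a pro-inflammatory cytokine mixture together with ML351, against islets exposed to the cytokine mixture without it. Of the 12 libraries of the series, 6 enter this comparison: 3 of islets given cytokines plus ML351 (called the combination here; replicates 1, 2 and 4) and 3 of islets given cytokines (replicates 1, 3 and 4). The members were chosen by the treatment named for each sample, and all 14089 genes of the deposited count table were tested. Exposure lasted 24 hours, with ML351 at 10 µM. The mixture combined IL-1β (5 ng/ml), TNF-α (10 ng/ml) and IFN-γ (100 ng/ml). The other libraries, 3 of islets given vehicle (replicates 1, 2 and 4) and 3 given ML351 without cytokines (replicates 1, 2 and 3), were used to set the spread between libraries and to show the effect of ML351 in islets without cytokines. All islets came from C57BL/6J mice, were isolated from pancreata perfused with collagenase, and carried no genetic change named in the labels. Whether libraries of one treatment stem from different mice or dishes is not stated, so a p-value reflects how far these libraries scatter, and that scatter may be technical.

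ML351 inhibits 12/15-lipoxygenase, an enzyme that adds oxygen to polyunsaturated fatty acids such as arachidonic acid and so makes lipid peroxides. In islets the cytokines of this mixture signal through NF-κB and the interferon pathway, raise inducible nitric oxide synthase and chemokines, and lower the expression of genes of β-cell identity. Isolated islets hold β, α, δ and PP cells with endothelial cells, resident macrophages, ductal cells and some acinar cells of the exocrine pancreas, so a bulk library sums the RNA of all of them.

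Library totals ran from 20208286 to 27193026 counts over the 12 libraries. The marker lists place the libraries as islet tissue, with Ins1 and Ins2 taking 24% to 28.5% of the counts of the 6 libraries compared. RNA of acinar cells differed between the groups. The summed level of the 27 measured acinar markers was 56, 727 and 1030 CPM (counts scaled to a common library total) in cytokine replicates 1, 3 and 4 and 1510, 1760 and 1200 CPM in combination replicates 1, 2 and 4. These sums did not overlap, so acinar RNA and treatment cannot be fully told apart in these 6 libraries. Cytokine replicate 1 stood apart: it had the lowest acinar level, with the enzyme gene Cpa1 at 0.363 CPM, against 26.3 to 49 CPM in the other 5 libraries. It also lay at 45.9 on the first principal component of the 6 libraries, which held 38% of the variance, while the other cytokine libraries lay at -2.8 and 18.7 and the combination libraries at -29.2, -20.6 and -12.

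Few genes were called between the combination and cytokines, and most of the called changes were small. edgeR called 202 of 14089 genes at an adjusted p under 0.05 (1.43%), of which 91 were higher (0.646%) and 111 lower (0.788%) in the combination. At an unadjusted p under 0.05, 2212 genes passed (15.7%), 1097 higher (7.79%) and 1115 lower (7.91%). For comparison, the cytokine mixture by itself called 10209 genes against vehicle (72.5%). The median size of the change among the 202 called genes was 0.388 on the log2 scale, 158 of them changed by less than 1.5-fold, and 23 changed by more than 2-fold (11 higher, 12 lower). The CPM of the 3 combination libraries did not overlap with those of the 3 cytokine libraries for any of the 202 called genes, nor for 2877 of all genes (20.4%).

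**Figure D1:**
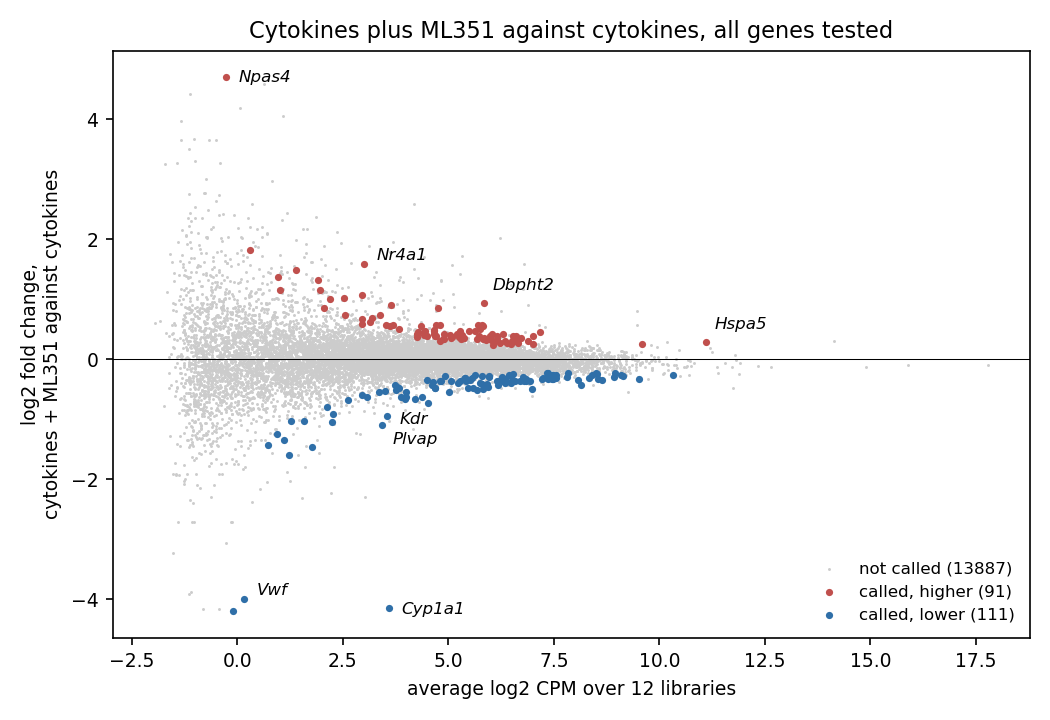
Log2 fold change of cytokines plus ML351 against cytokines (vertical axis) against the average log2 CPM over 12 libraries (horizontal axis), 1 point per gene; red points are the 91 called genes that were higher, blue points the 111 that were lower, grey points the genes not called. Most called genes lie close to 0, and Npas4, Vwf and Cyp1a1 are among those far from the rest. Oprl1, a called gene that also fell, had log2 fold changes of -6.2 to -3.49 over 19 alternatives and was called in 7 of them.

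The count of called genes depended on which libraries and which acinar term were in the model. It was 90, 114 and 125 without vehicle replicate 1, 2 or 4, and 74, 74 and 54 without cytokine replicate 1, 3 or 4. Without combination replicate 2 it was 80. With the acinar level as a covariate 7 genes were called: all 202 kept their sign, the median ratio of the log2 fold change with the covariate to that without it was 1.03, and the standard errors (SE) were 1.25 times as large in the median. With the scaling of DESeq2 in the same edgeR fit 213 genes were called, 71 higher and 142 lower. Of the 202 genes, 6 were called in each of 22 other ways of running the test, namely Mat2a, Stk38l, Cda, Eva1b, Pabpc1 and Vwf, and 18 more were lost only when the acinar covariate was added. Among those 18, Npas4 had a value in 20 of the 22.

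Of the genes named by the naming rule given with the processing, Cyp1a1 fell most. Cyp1a1 (chromosome 9, 57687928 to 57703824, GRCm38) encodes a cytochrome P450 enzyme that oxidises xenobiotics and some fatty acids, and its transcription is driven by the aryl hydrocarbon receptor (AHR), which pairs with ARNT and binds DNA at the core GCGTG. Its level was 10.1, 13.1 and 18.7 CPM in the cytokine libraries and 0.293, 1.59 and 0.363 CPM in the combination libraries. Each combination library was thus far under the lowest cytokine library. The group means were 13.9 ± 4.38 and 0.749 ± 0.729 CPM (SD, n = 3 each), a log2 fold change of -4.15 (SE 0.51, edgeR adjusted p = 0.012). Without cytokines the level was 23.9 CPM with vehicle and 8.87 CPM with ML351 (log2 fold change -1.43, adjusted p = 0.27). The Cyp1a1 call was lost with the acinar covariate (-4.42, adjusted p = 0.052) and when only the 6 libraries were fitted (adjusted p = 0.086), and it held without each of the 12 libraries in turn.

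The promoter of Cyp1a1 is shown because its transcript fell most among the genes named by that rule. These are the 250 bases before the start given by RefSeq (GRCm38.p6, chr9:57697363-57697612, plus strand), with the AHR core GCGTG in capitals, searched on both strands.
Cyp1a1: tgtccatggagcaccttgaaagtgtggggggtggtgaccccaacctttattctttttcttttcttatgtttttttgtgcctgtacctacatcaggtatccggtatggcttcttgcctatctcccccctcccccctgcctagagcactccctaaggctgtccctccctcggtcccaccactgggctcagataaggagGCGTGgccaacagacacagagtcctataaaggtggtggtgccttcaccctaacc
The single match lies 54 to 50 bases before the start. Of 32851 promoters of this length 28.2% hold GCGTG, so a match is common and is given as a description.

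Other genes of the AHR and xenobiotic list did not pass the adjusted threshold. Of its 15 measured members 1 thus fell and 0 rose (0.788% and 0.646% of all genes). At an unadjusted p under 0.05, 4 members, Cyp1a1 included, were lower and 2 higher (7.91% and 7.79% of all genes). The list median was -0.05 against 0.00 for all genes. Cyp1b1, a related P450 gene, was at 25.7, 17.9 and 26.9 CPM with cytokines and 2.25, 8.17 and 3.84 CPM with the combination. These ranges did not overlap (log2 fold change -2.29, SE 0.50, adjusted p = 0.072). Ahrr, which encodes a repressor of AHR and is itself an AHR target, was at 1.13, 0.54 and 0.605 CPM against 0, 0.177 and 0.155 CPM (-2.72, adjusted p = 0.082). Tiparp, another AHR target, was at -0.26 (adjusted p = 0.12). Ahr, the receptor gene, was at 5.39 ± 0.494 and 8.91 ± 2.27 CPM (0.73, adjusted p = 0.072), and Gsta1, a glutathione transferase gene, at 2.16 (SE 1.04, adjusted p = 0.37).

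Of the immediate early genes, which cells induce within minutes of a rise in calcium, cAMP or growth factor signals, 3 of 19 measured list members rose, and Npas4, which is outside that list, had the largest rise of all genes. Npas4 is a transcription factor gene induced by membrane depolarisation and calcium entry in neurons and β cells; it was named after its values were seen. It had 4, 3 and 0 counts in the cytokine libraries and 65, 70 and 47 counts in the combination libraries. The vehicle libraries had 3, 0 and 0 counts and the ML351 libraries 6, 0 and 1, so that the 3 combination libraries stood above all 9 others. In CPM the means were 0.103 ± 0.0893 with cytokines and 2.9 ± 0.405 with the combination (SD, n = 3), a ratio of 27.1 (12.9 to 68.4, exact 95% Poisson interval of the summed counts, counting error only). By edgeR the log2 fold change was 4.70 (SE 0.76, adjusted p = 0.0097). The call held without each of the 12 libraries in turn and was lost with the acinar covariate (4.97, adjusted p = 0.098).

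The nuclear receptor genes Nr4a1 and Nr4a2, immediate early genes of the same family, rose as well. Nr4a1 (chromosome 15, 101254269 to 101274795) was at 5.2, 4.66 and 3.12 CPM with cytokines and at 14.9, 13.1 and 11.1 CPM with the combination. Every combination library held over 2 times the level of the highest cytokine library, and 1 ML351 library, replicate 1, at 12.2 CPM, lay in the same range. The log2 fold change was 1.58 (SE 0.31, adjusted p = 0.040). Nr4a2 (chromosome 2, 57106830 to 57124003) was at 3.27, 2.55 and 3.22 CPM with cytokines and 7.18, 5.65 and 4.15 CPM with the combination (0.91, SE 0.21, adjusted p = 0.048). Its level in islets without cytokines was higher than in either group, 17.6 CPM with vehicle. Btg2, an anti-proliferative gene that is also a p53 target, had 66.3 ± 4.3 CPM with cytokines. It rose to 86.3 ± 7.24 CPM (0.38, SE 0.073, edgeR adjusted p = 0.022). Of 18 measured p53 targets 2 rose and 0 fell (0.646% and 0.788% of all genes), Btg2 and Trp53inp1 (0.38, edgeR adjusted p = 0.029). At the unadjusted threshold 4 p53 targets were higher and 0 lower (7.79% and 7.91% of all genes), with a list median of 0.02.

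Of the 19 measured immediate early genes 3 rose, Nr4a1, Nr4a2 and Btg2, and 0 fell by the adjusted threshold (0.646% and 0.788% of all genes). At the unadjusted one 6 were higher and 0 lower (7.79% and 7.91% of all genes), while the list median was 0.07. Fos was at 6.61, 12.9 and 7.86 CPM with cytokines and 17.6, 20.2 and 14.6 CPM with the combination, without overlap (0.94, SE 0.37, adjusted p = 0.26). Dusp1, a phosphatase gene, was at 0.31 (adjusted p = 0.14) and Ier2 at 0.29 (adjusted p = 0.20), whereas Jun was at -0.02 and Egr1 at 0.03. Without cytokine replicate 3 or 4 or combination replicate 1 or 2, 0 of the list's members were called, and 1 was called without vehicle replicate 1 or 2 or cytokine replicate 1. Gem, Errfi1 and Tob1 are signal-induced genes named after their values were seen and picked as rises, so their direction was fixed by that choice. They rose by 0.38, 0.46 and 0.50 (edgeR adjusted p = 0.035, 0.029 and 0.030).

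Promoters of Npas4 and Nr4a1 are shown because these genes gave the largest rises of the comparison at low and at moderate level. The 250 bases before the RefSeq start (GRCm38.p6; Npas4 at chr19:4989972-4990221, minus strand; Nr4a1 at chr15:101266596-101266845, plus strand) are printed 5′ to 3′ along the gene, with capitals marking TGACG, a core of the cAMP response element, on either strand (CGTCA is its reverse).
Npas4: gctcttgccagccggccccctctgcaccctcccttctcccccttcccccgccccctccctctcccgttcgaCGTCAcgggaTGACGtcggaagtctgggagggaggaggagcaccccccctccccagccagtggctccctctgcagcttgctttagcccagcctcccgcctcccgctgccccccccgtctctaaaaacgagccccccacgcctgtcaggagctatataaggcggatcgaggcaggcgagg
Nr4a1: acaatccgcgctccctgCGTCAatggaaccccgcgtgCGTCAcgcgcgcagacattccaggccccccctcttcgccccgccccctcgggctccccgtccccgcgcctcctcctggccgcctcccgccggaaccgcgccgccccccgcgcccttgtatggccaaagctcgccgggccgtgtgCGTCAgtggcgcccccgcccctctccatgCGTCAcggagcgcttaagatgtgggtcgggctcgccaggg
Npas4 has 2 matches and Nr4a1 has 4, and 17.8% of the 32851 promoters hold at least 1. No match of the NRF2 element TGACNNNGC overlaps them. The AHR core GCGTG, not marked here, has 1 match in the stretch of Npas4 and 2 in that of Nr4a1. TGACG was chosen after the values were seen, and a match describes these letters without showing that a factor binds there.

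**Figure D2:**
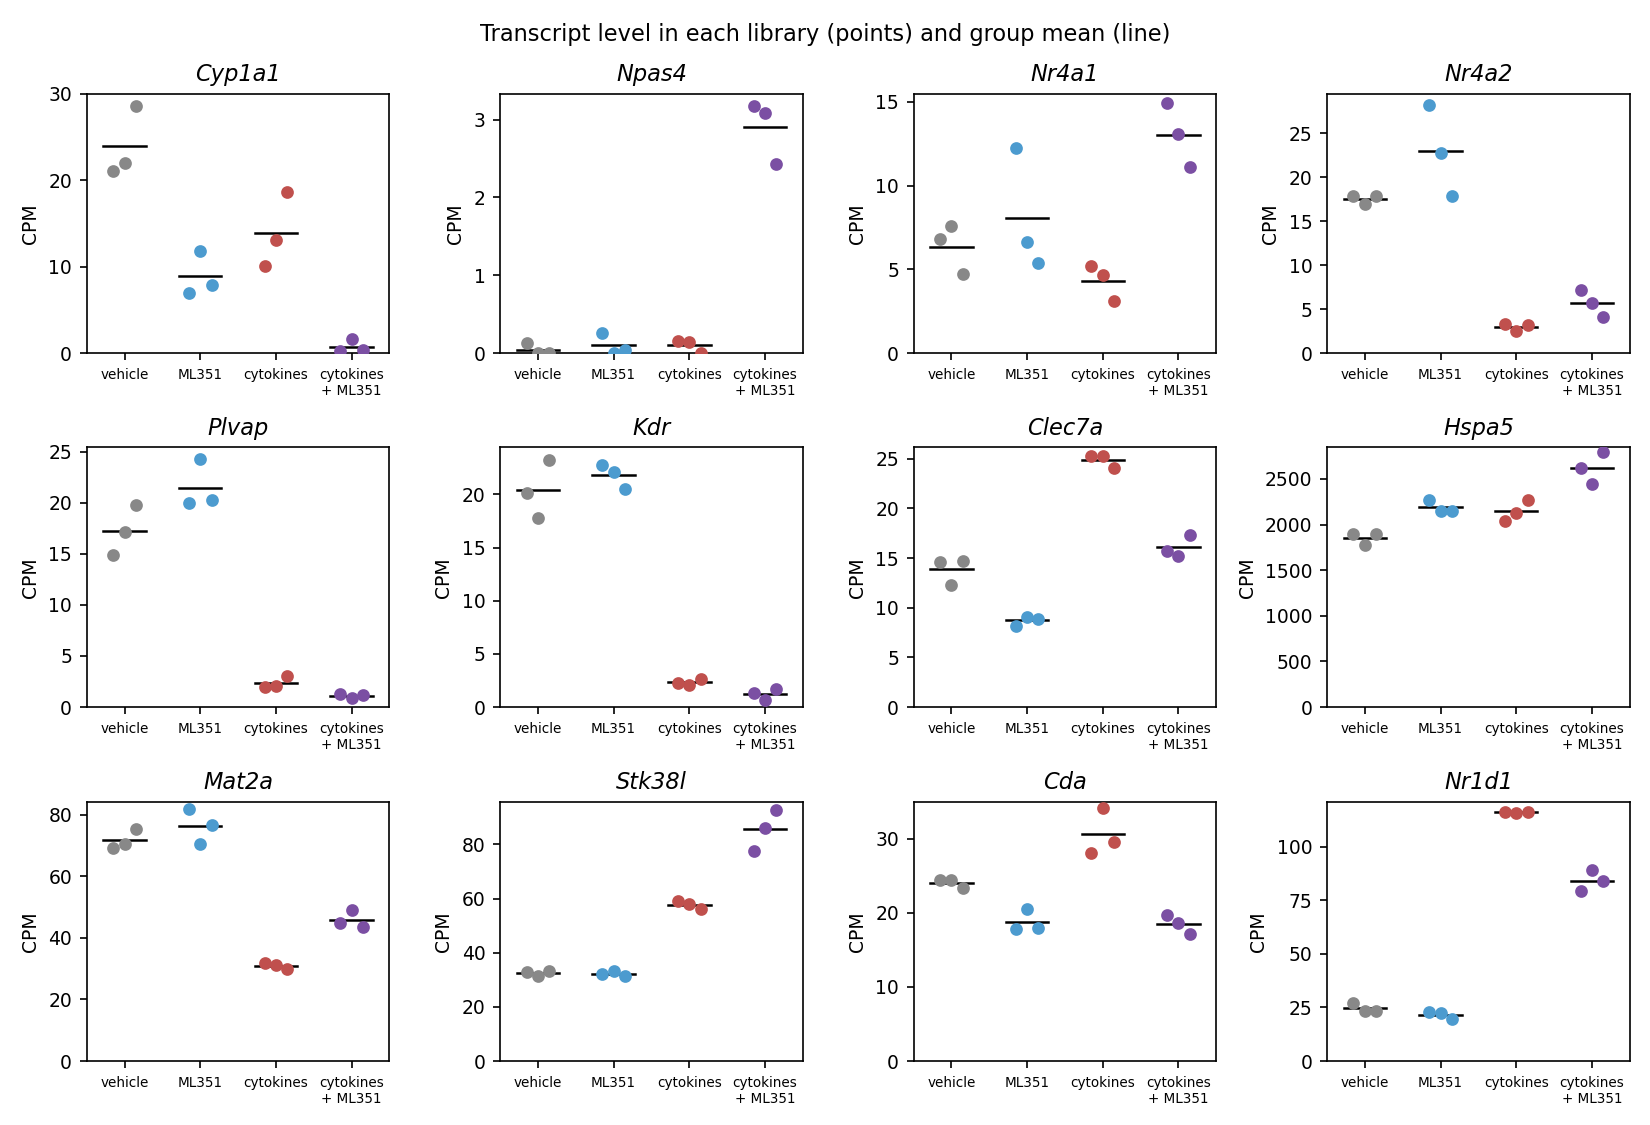
CPM (vertical axes, linear from 0) of 12 genes in each of the 12 libraries, by treatment; points are libraries and black lines are group means of 3. Npas4 is near 0 in 9 libraries and between 2.44 and 3.18 CPM in the combination libraries, while Cyp1a1 is lowest in them, and Nr1d1, Clec7a and Cda are lower there than with cytokines.

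Endothelial markers were lower in the combination. Of 13 measured members 5 fell and 0 rose by the adjusted threshold (0.788% and 0.646% of all genes). At the unadjusted one 9 were lower and 0 higher (7.91% and 7.79% of all genes). All 13 log2 fold changes were negative, with a median of -0.69. Plvap (chromosome 8, 71497765 to 71511752), which forms the diaphragms of endothelial fenestrae, was at 1.94, 2.11 and 3.02 CPM with cytokines and 1.27, 0.883 and 1.14 CPM with the combination. Both sets lay far under the 17.2 CPM of vehicle islets, and they did not overlap (log2 fold change -1.09, SE 0.22, adjusted p = 0.027). Kdr (chromosome 5, 75932827 to 75978458), the receptor VEGFR2, was at 2.26, 2.11 and 2.67 CPM against 1.32, 0.707 and 1.66 CPM (-0.95, SE 0.23, adjusted p = 0.0495). Vwf, the gene of von Willebrand factor, had 18, 12 and 25 counts with cytokines and 2, 1 and 0 counts with the combination. That is 5.69% of the cytokine level (1.14% to 17.5%, exact 95% Poisson interval, counting error only), with an edgeR adjusted p of 0.0087 that stayed under 0.05 in each of 22 alternatives.

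The remaining called endothelial genes were Eng, a co-receptor for TGF-β (10.5 ± 0.848 to 6.61 ± 1.01 CPM; -0.66, adjusted p = 0.020), and Cdh5, VE-cadherin (1.44 ± 0.149 to 0.564 ± 0.0972 CPM; -1.35, adjusted p = 0.049). Emcn was at -2.24 (adjusted p = 0.097), Tie1 at -1.15 (0.12) and Pecam1 at -0.69 (0.17). Adgrl4, an endothelial gene, fell by 1.05 (edgeR adjusted p = 0.044). It was picked as a fall after its values were seen, so its direction was fixed by that choice. The summed level of the 13 markers was 30.2, 32.1 and 41.8 CPM with cytokines and 23.1, 19.3 and 23.6 CPM with the combination, a gap that is small beside the 124 to 134 CPM of vehicle islets. In ML351 islets without cytokines the list median was 0.27. Only 1 endothelial gene was called without cytokine replicate 4, 2 without cytokine replicate 3 or combination replicate 2, and 3 without vehicle replicate 1, 2 or 4 or ML351 replicate 3. It was 2 with limma-voom or the replicate block, 3 without robust estimation and 1 with only the 6 libraries. In a bulk library fewer cells of a type and less RNA per cell cannot be told apart.

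Of 17 measured macrophage markers 3 fell and 0 rose (0.788% of all genes fell), and 7 were lower and 0 higher at the unadjusted threshold (7.91% and 7.79% of all genes). The median was -0.32, with 15 negative values and 2 positive ones of up to 2.03 that did not pass either threshold. Clec7a (chromosome 6, 129461591 to 129472779), the β-glucan receptor of myeloid cells, was at 25.3, 25.3 and 24.1 CPM with cytokines and 15.7, 15.2 and 17.4 CPM with the combination. The libraries of each group lay close together and well apart from the other group (-0.63, SE 0.096, adjusted p = 0.0087). ML351 gave a drop of like size without cytokines, from 13.9 to 8.73 CPM (-0.67, adjusted p = 0.042), and the difference of both effects had an adjusted p of 0.97. C1qc, a chain of complement C1q, was at 23.5, 22.3 and 21.8 CPM against 15.8, 15.5 and 17.1 CPM (-0.48, SE 0.10, adjusted p = 0.031). Laptm5, a lysosomal membrane protein of blood cells, fell from 11 ± 0.76 to 7.14 ± 0.733 CPM (-0.63, adjusted p = 0.047).

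The Fc receptor chain Fcer1g (-0.55, adjusted p = 0.055) and C1qb (-0.37, adjusted p = 0.11) also had lower values, while Cd68 was at -0.06, Lyz2 at -0.16 and Adgre1, which encodes F4/80, at -0.32 (adjusted p = 0.43). The summed macrophage level was 375, 390 and 372 CPM with cytokines and 329, 333 and 330 CPM with the combination, without overlap, and 246, 247 and 243 CPM with vehicle against 203, 202 and 179 CPM with ML351 alone. The list therefore had lower sums with ML351 in both backgrounds, and its median without cytokines was -0.41. Only 1 macrophage marker was called without vehicle replicate 1, cytokine replicate 1, 3 or 4, or combination replicate 1 or 2. Among 22 measured lysosomal genes 2 fell and 0 rose (0.788% and 0.646% of all genes). At the unadjusted threshold 5 were lower and 2 higher (7.91% and 7.79% of all genes). The 2 that fell were Gpnmb, a glycoprotein of phagocytes (79.2 ± 12 to 55.4 ± 1.35 CPM; -0.51, adjusted p = 0.047), and the protease gene Ctsl (766 ± 24 to 641 ± 39.1 CPM; -0.26, adjusted p = 0.040). Pla2g7, Lgals3 and Hdc, which are expressed in myeloid cells among others, fell by 0.46, 0.40 and 1.02 (edgeR adjusted p = 0.049, 0.040 and 0.049). These genes were picked as falls after their values were seen, so their direction was fixed by that choice.

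**Figure D3:**
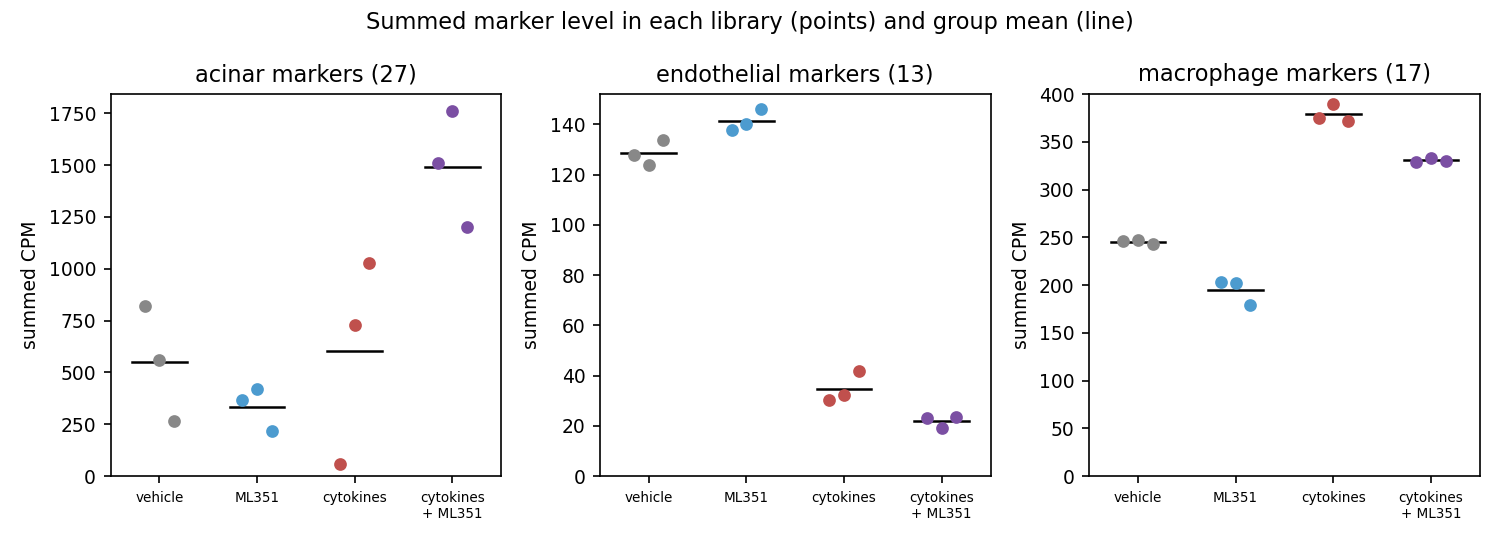
Summed CPM of acinar (27 genes), endothelial (13) and macrophage (17) markers in each library (points; vertical axes linear from 0) with group means (lines). The acinar sums of the combination libraries (1510, 1760 and 1200 CPM) lie above those of the cytokine libraries, and the endothelial and macrophage sums below them.

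Acinar markers had positive values in the combination for 27 of 27 measured genes, with a median of 1.17. By the adjusted threshold 1 rose and 0 fell (0.646% and 0.788% of all genes). Prss2, a trypsinogen gene, was at 6.69, 104 and 144 CPM with cytokines and 285, 295 and 184 CPM with the combination. The spread among the cytokine libraries was as wide as the gap between the groups (1.59, SE 0.98, adjusted p = 0.49). The member that rose was Bhlha15, a transcription factor of secretory cells, at 8.87, 11.5 and 7.51 CPM with cytokines and 15.5, 13.2 and 12.5 CPM with the combination (0.57, SE 0.12, adjusted p = 0.035). It was at 89.9 CPM in vehicle islets, where the acinar sum was 268 to 818 CPM. With the acinar sum as a covariate, 1 endothelial marker, 0 macrophage markers, 0 immediate early genes and 0 glycolytic genes of the lists were called, and 9, 6, 3 and 12 of them passed the unadjusted threshold in the same direction. Of 11 ductal markers 1 fell and 0 rose (0.788% and 0.646% of all genes), and 1 was lower and 2 higher at the unadjusted threshold. The 1 that fell was Krt7 (665 ± 28.8 to 565 ± 25.9 CPM, edgeR adjusted p = 0.047). Of 7 Schwann cell markers 0 were called, and 6 had a negative value, with a median of -1.22. At the unadjusted threshold 3 of them were lower and 0 higher (7.91% and 7.79% of all genes).

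Hormone genes and β-cell identity genes gave 0 calls for β, α and PP cells. Of 29 β-cell markers 6 were lower and 1 higher at the unadjusted threshold (7.91% and 7.79% of all genes), with a median of -0.09. Pdx1, a β-cell transcription factor, was at 6.87 ± 0.621 CPM with cytokines and 6.57 ± 1.36 CPM with the combination (SD, n = 3; -0.07, SE 0.13, adjusted p = 0.85), against 70.5 CPM with vehicle. Mafa was at 6.66 and 6.7 CPM (0.01, SE 0.15), Ins1 at -0.10 (SE 0.10), Ins2 at -0.10 (SE 0.096) and Gcg, the glucagon gene, at 0.31 (SE 0.36, adjusted p = 0.74). For Pdx1 and Mafa the combination libraries stayed with the cytokine libraries, an order of magnitude under vehicle. Trpm5, a channel of β cells, was at -0.39 (adjusted p = 0.12). Of 5 δ-cell markers 1 rose and 0 fell (0.646% and 0.788% of all genes). At the unadjusted threshold 3 were higher and 0 lower (7.79% and 7.91% of all genes). The 1 that rose was Hhex, a transcription factor of δ cells. It was at 1.17, 2.4 and 1.76 CPM against 4.25, 2.91 and 3.94 CPM (1.07, SE 0.22, edgeR adjusted p = 0.029). Sst, the somatostatin gene, was at 95.1 ± 19.4 and 141 ± 30 CPM (0.57, adjusted p = 0.14).

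Glycolytic and hypoxia-related genes had lower values in the combination. Of 26 measured members 24 had a negative value, with a median of -0.26. By the adjusted threshold 2 fell and 0 rose (0.788% and 0.646% of all genes). At the unadjusted one 14 were lower and 0 higher (7.91% and 7.79% of all genes). Pgam1 (chromosome 19, 41911923 to 41918660), a phosphoglycerate mutase, was at 118, 119 and 120 CPM with cytokines and 95.6, 84.2 and 97.3 CPM with the combination (-0.36, SE 0.073, adjusted p = 0.027). Pkm, the muscle-type pyruvate kinase, fell from 1531 ± 27.4 to 1273 ± 43.9 CPM (-0.27, SE 0.055, adjusted p = 0.029). Both sets of libraries stayed above vehicle islets, where Pgam1 was at 59.9 and Pkm at 1134 CPM. Aldoa was at 2254 ± 48.3 and 1861 ± 47 CPM (-0.28, adjusted p = 0.053), Tpi1 at 580 ± 6.89 and 430 ± 4.03 CPM (-0.43, adjusted p = 0.085) and Gapdh at 1362 ± 48.2 and 1089 ± 14.7 CPM (-0.32, adjusted p = 0.089), all without overlap.

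Several genes outside that list were named after their values were seen and picked as falls, so their direction was fixed by that choice. Egln1, the prolyl hydroxylase that marks HIF-1α for decay and is induced by HIF, was at 103, 108 and 105 CPM with cytokines and 75.2, 72 and 86.2 CPM with the combination (-0.44, SE 0.069, adjusted p = 0.0087). Ndrg1, a hypoxia-induced gene, fell from 436 ± 36.7 to 324 ± 11.9 CPM (-0.43, adjusted p = 0.0087). Both calls held without each of the 12 libraries. With the acinar covariate Egln1 was at -0.47 (adjusted p = 0.052) and Ndrg1 at -0.43 (adjusted p = 0.053). P4ha2 and Plod1, hydroxylases of collagen, fell by 0.40 and 0.36, and Gys1, glycogen synthase, fell by 0.48 (adjusted p = 0.029, 0.029 and 0.031). The number of called members of the glycolysis list was 0 without cytokine replicate 1, 3 or 4 or combination replicate 2. It was 1 without vehicle replicate 1 or combination replicate 1, and 7 without ML351 replicate 1. With DESeq2 it was 7, with only the 6 libraries 5 and with the replicate block 0.

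Among genes of the endoplasmic reticulum (ER), 1 of 28 measured members rose and 0 fell (0.646% and 0.788% of all genes). Hspa5 (chromosome 2, 34771970 to 34777547), the ER chaperone BiP, was at 2041, 2124 and 2273 CPM with cytokines and 2619, 2448 and 2793 CPM with the combination. The lowest combination library lay above the highest cytokine library (0.29, SE 0.061, adjusted p = 0.031). ML351 without cytokines gave 0.24 (1857 to 2191 CPM, adjusted p = 0.18). The ER list otherwise gave no call: 4 members were higher and 2 lower at the unadjusted threshold (7.79% and 7.91% of all genes), and the median was 0.01. Pdia4 was at 0.23 (adjusted p = 0.055), Ssr1 at 0.20 (0.086) and Ddit3, a stress transcription factor, at -0.09 (0.50). Hspa5 was called in 14 of 22 alternatives. Its call was lost with the acinar covariate (0.25, edgeR adjusted p = 0.19). Among others, it was also lost without vehicle replicate 1, cytokine replicate 1 or 3, or combination replicate 1 or 4.

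Genes of the secretory route outside the lists were named after their values were seen and picked as rises, so their shared direction was fixed by that choice. Edem3, which trims mannose from misfolded glycoproteins, was at 35.8 ± 1.07 CPM and rose to 46.7 ± 1.1 CPM (0.38, SE 0.065, adjusted p = 0.011). Serp1, a translocon-associated protein, rose from 530 ± 8.07 to 634 ± 49.2 CPM (0.26, adjusted p = 0.0498), and Hspa13 rose by 0.25 (adjusted p = 0.049). Sec16b, an organiser of ER exit sites and among the largest rises by the naming rule, went from 5.88 ± 1.26 to 8.74 ± 0.202 CPM (0.57, adjusted p = 0.042). Bet1, a SNARE of ER-to-Golgi transport, rose by 0.35, Tmed5, a cargo receptor of the same route, by 0.38, and Alg6, a glucosyltransferase of N-glycan assembly, by 0.58 (adjusted p = 0.043, 0.043 and 0.044). Edem3, Serp1, Hspa13, Sec16b, Bet1, Tmed5 and Alg6 were all higher in vehicle islets than in either cytokine group (78.3, 911, 120, 46.7, 60.1, 29 and 10.5 CPM). Of 22 alternatives, Edem3 was called in 20, Sec16b and Tmed5 in 9, Bet1 in 7, Alg6 in 6, Serp1 in 5 and Hspa13 in 4. With the acinar covariate none was called by edgeR (adjusted p from 0.095 for Edem3 to 0.21 for Serp1).

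Of 17 heat shock genes 0 were called and 6 were higher and 0 lower at the unadjusted threshold (7.79% and 7.91% of all genes), with a median of 0.12. The smallest p-values were those of Dnaja1 (0.22, adjusted p = 0.12) and Hsph1 (0.28, adjusted p = 0.12). Of 30 cytosolic ribosomal proteins 27 had a negative value, 8 were lower at the unadjusted threshold (7.91% of all genes) and 2 fell (0.788% of all genes), Rpl10 (-0.28, adjusted p = 0.047) and Rpl18 (-0.25, adjusted p = 0.0498), with a median of -0.12. Among 20 aminoacyl-tRNA synthetases 1 fell and 0 rose (0.788% and 0.646% of all genes). At the unadjusted threshold 5 were lower and 1 higher (7.91% and 7.79% of all genes). The 1 that fell was Qars, for glutamine, from 63.9 ± 3.56 to 50.2 ± 0.76 CPM (-0.35, edgeR adjusted p = 0.012). Pabpc1, the cytoplasmic poly(A)-binding protein, was at 712, 787 and 754 CPM with cytokines and 595, 589 and 603 CPM with the combination (-0.33, SE 0.053, adjusted p = 0.0087). It is one of the 6 genes called in every alternative, and its level in vehicle islets was 71.6 CPM.

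Insulin granule exocytosis genes gave 2 calls of 24, both lower (0.788% of all genes fell). At the unadjusted threshold 2 were lower and 0 higher (7.91% and 7.79% of all genes). Rph3al, the Rab27 effector Noc2 of secretory granules, was at 96.7, 107 and 107 CPM with cytokines and 79.1, 81.3 and 81.4 CPM with the combination (-0.36, SE 0.059, adjusted p = 0.0095). Cplx2, complexin 2, which clamps and primes SNARE complexes, fell from 17.5 ± 1.17 to 12.4 ± 1.64 CPM (-0.49, SE 0.097, adjusted p = 0.027). Rab27b, a granule GTPase outside the rule, was at 1.01 ± 0.358 CPM and rose to 2.81 ± 0.607 CPM (1.48, SE 0.28, adjusted p = 0.019). The somatostatin receptor gene Sstr3 and the muscarinic receptor gene Chrm3, both seen in the values first, fell by 0.37 and 0.52 (adjusted p = 0.012 and 0.043). Of 17 clock genes 1 fell and 0 rose (0.788% and 0.646% of all genes). At the unadjusted threshold 1 was lower and 2 higher (7.91% and 7.79% of all genes). The 1 that fell was Nr1d1 (chromosome 11, 98767932 to 98775333), which encodes the repressor REV-ERBα. It was at 116 CPM in each of the 3 cytokine libraries. With the combination it was at 79.3, 89 and 83.9 CPM (-0.46, SE 0.072, edgeR adjusted p = 0.0087).

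Genes of the immune response to the cytokines gave 1 call in the lists. Of 36 interferon response genes 36 were higher with cytokines than with vehicle, and 1, the antiviral gene Rsad2, rose further with ML351, from 182 ± 9.82 to 234 ± 15.1 CPM (0.36, SE 0.086, adjusted p = 0.0498). The median of the list was 0.01, with 5 members higher and 6 lower at the unadjusted threshold (7.79% and 7.91% of all genes). By the adjusted threshold 0.646% of all genes rose. Ifnl3, the type III interferon λ3, named after its values were seen, was at 7.7, 8.83 and 6.3 CPM against 15.2, 16.5 and 14.7 CPM. No combination library came near the cytokine libraries for it (1.02, SE 0.21, adjusted p = 0.029). MHC class I genes (17), MHC class II genes (7), NF-κB targets (28) and chemokines (18) gave 0 calls, with medians of -0.07, -0.11, -0.11 and -0.10. Of the MHC class I genes 15 of 17 had a negative value, and 3 were lower and 0 higher at the unadjusted threshold (7.91% and 7.79% of all genes). Of the NF-κB targets 20 of 28 had a negative value, and 5 were lower and 1 higher. MHC class II genes and chemokines had 1 lower member each and 0 higher. Psmb10, an immunoproteasome subunit, was at 324 ± 12.6 and 276 ± 6.37 CPM (-0.23, adjusted p = 0.072).

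Nos2, inducible nitric oxide synthase, was at 1279, 1222 and 1176 CPM with cytokines and 957, 946 and 1092 CPM with the combination. These did not overlap, but the change did not pass (-0.30, SE 0.084, adjusted p = 0.10). Cxcl10, a chemokine gene, was at 1115 ± 166 and 1173 ± 199 CPM (0.07, SE 0.15, adjusted p = 0.87). Gadd45b, a stress and NF-κB response gene named after its values were seen, fell from 123 ± 10.2 to 92 ± 6.17 CPM (-0.42, adjusted p = 0.020). Alox12, which encodes platelet-type 12-lipoxygenase, was at 14.1 ± 1.76 and 11.5 ± 1.83 CPM (-0.30, SE 0.17, adjusted p = 0.43), against 0.368 CPM with vehicle. Alox15, the gene of the 12/15-lipoxygenase that ML351 inhibits, was not among the tested genes and has no value here.

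Antioxidant genes, the response the study's title points to, gave 0 calls. Of 31 antioxidant enzymes 2 were higher and 7 lower at the unadjusted threshold (median -0.02), and of 30 targets of NRF2, the transcription factor of the oxidative stress response, 3 were higher and 5 lower (median -0.01). Over all genes 7.79% were higher and 7.91% lower. Sod1 was at 108 ± 7.44 and 95.2 ± 3.72 CPM (-0.19, SE 0.067, adjusted p = 0.18), Sod2 at -0.14 (SE 0.061), Gpx1 at -0.06 (SE 0.079) and Cat at 0.14 (SE 0.11). Nfe2l2, the NRF2 gene, was at 78.8, 82.4 and 81.4 CPM with cytokines and 62.2, 71.6 and 69.7 CPM with the combination, without overlap (-0.25, SE 0.066, adjusted p = 0.070). Hmox1, heme oxygenase, was at 906 ± 89.9 and 905 ± 55.7 CPM (SE of the log2 fold change 0.098). Gclc, the catalytic subunit of glutathione synthesis, was at 89.6, 131 and 96.2 CPM with cytokines and 220, 178 and 191 CPM with the combination. The ranges were apart, but the SE was 0.25 (0.90, adjusted p = 0.13).

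**Figure D4:**
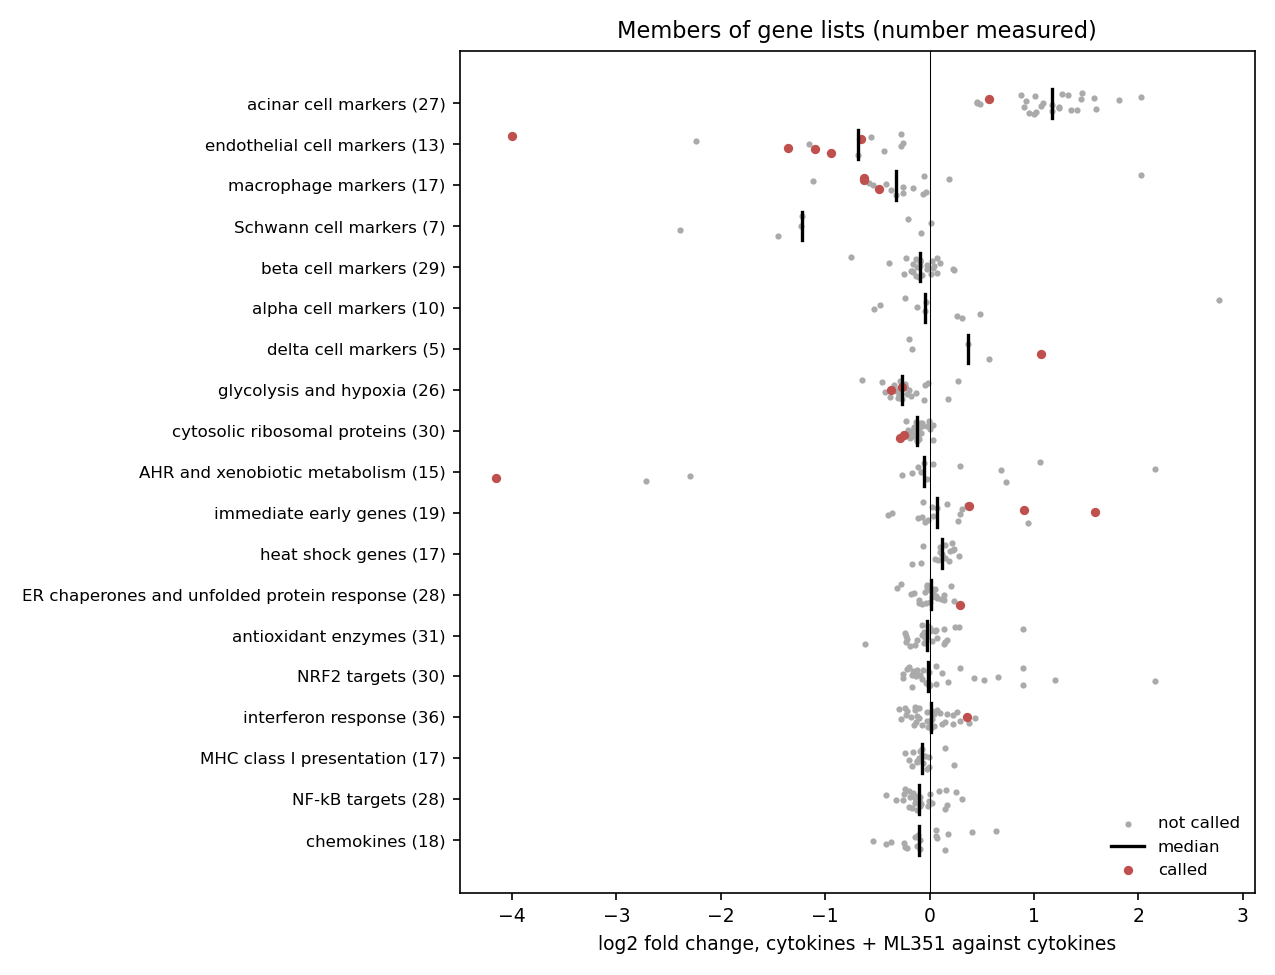
Log2 fold change of cytokines plus ML351 against cytokines (horizontal axis) for the measured members of 19 gene lists (rows), 1 point per gene; red points are called genes, grey points are not, and vertical bars are list medians. The acinar list lies to the right of 0 (median 1.17), the endothelial list to the left (-0.69), and the interferon, NF-κB and antioxidant lists around 0.

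The largest rises by the naming rule (genes called, without overlap, whose average log2 CPM reached 3) went, after Nr4a1, to Dbpht2 (5.98 ± 1.28 to 11.6 ± 1.6 CPM; 0.94, adjusted p = 0.027), Nr4a2 and Wdr90, a centriole protein (3.45 ± 0.761 to 6.32 ± 0.784 CPM; 0.86, adjusted p = 0.027). Atad2, a chromatin ATPase with a bromodomain, rose by 0.73, Ppl, periplakin, by 0.68, Arl15 by 0.61, Tnrc6a, a scaffold of miRNA silencing, by 0.57, and Pvrl2, nectin-2, by 0.57. Stk38l, the kinase NDR2, was at 58.9, 58.1 and 56.3 CPM with cytokines and 77.6, 86.2 and 92.8 CPM with the combination (0.56, SE 0.067, adjusted p = 0.0028). Mat2a, which makes S-adenosylmethionine, was at 31.9, 31.1 and 29.9 CPM against 44.7, 49 and 43.5 CPM (0.56, SE 0.072, adjusted p = 0.0028). Stk38l and Mat2a had the smallest adjusted p of the comparison, together with Cda. For Stk38l the cytokine libraries lay above vehicle (32.5 CPM) and the combination higher still, whereas for Mat2a the combination lay between cytokines and vehicle (71.6 CPM).

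Among the largest falls, Cda, cytidine deaminase, was at 28.1, 34.2 and 29.6 CPM with cytokines and 19.7, 18.6 and 17.1 CPM with the combination (-0.73, SE 0.093, adjusted p = 0.0028). Blnk, an adaptor of B-cell receptor signalling, went from 42.3 ± 2.24 to 26.8 ± 1.97 CPM (-0.66, adjusted p = 0.013), after 2.7 CPM with vehicle. Loxl2, a lysyl oxidase, fell by 0.63, Eva1b by 0.62, Neurl1a, a ubiquitin ligase, by 0.55 and Slc9a9, an endosomal sodium-proton exchanger, by 0.55. The kinase gene Mapk3 (ERK1) fell by 0.33 (adjusted p = 0.010) and the annexin gene Anxa6 by 0.34 (adjusted p = 0.0087), both named after their values were seen. Of the 202 called genes 28 were in the 41 gene lists and 174 were in none.

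ML351 against vehicle asks the same question in islets without cytokines and shares no library with the comparison above. There edgeR called 5 genes (0.0355%): Xpo1 and Mcoln1 higher, Clec7a, Atp7a and Enpp2 lower. Xpo1, the nuclear export receptor, changed alike in both backgrounds, from 54.6 to 69.6 CPM without cytokines (0.35, adjusted p = 0.042) and from 45.6 ± 1.86 to 58.5 ± 1.84 CPM with them (0.36, SE 0.058, adjusted p = 0.0089). Enpp2, autotaxin, fell by 0.40 and by 0.32 (adjusted p = 0.042 and 0.031). Mcoln1, a lysosomal channel, was at 0.34 without cytokines and -0.01 with them, and Atp7a, a copper transporter, at -0.43 and -0.13.

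Of the 202 genes called in the presence of cytokines, 152 had the same sign without them (75.2%, against 58.7% of all genes), 69 of the 91 that rose and 83 of the 111 that fell. The sizes were smaller without cytokines: the median log2 fold change of the genes that rose was 0.42 with cytokines and 0.08 without, and that of the genes that fell was -0.37 and -0.08. Selection for a large value in the first comparison favours such a gap. Across the 202 genes the Pearson correlation of both effects was 0.655, and across all genes 0.276, as a description over genes that are not independent. Npas4 was at 4.70 with and 0.97 without cytokines, and Cyp1a1 at -4.15 and -1.43. At an unadjusted p under 0.05, 45 of the 202 changed in the same direction without cytokines and 4 in the opposite one.

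**Figure D5:**
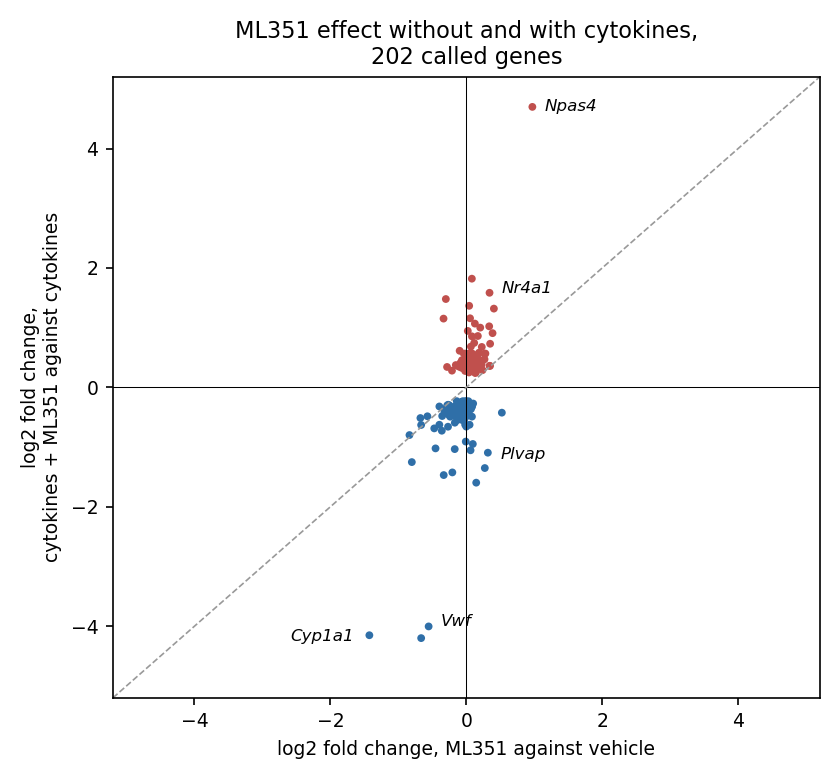
Log2 fold change of ML351 against vehicle (horizontal axis) and of cytokines plus ML351 against cytokines (vertical axis) for the 202 called genes, 1 point per gene; red points rose and blue points fell with cytokines, and the dashed line marks equal values. For 152 of 202 the sign is shared on both axes.

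The test of the difference between both ML351 effects called 1 gene (0.0071%), Ankrd10 (chromosome 8, 11611583 to 11635757). It was at 84.2, 80.5 and 88.9 CPM with vehicle and 68.3, 68.7 and 71.4 CPM with ML351, and at 30.5, 29.6 and 31.9 CPM with cytokines and 40.2, 39.5 and 36.8 CPM with the combination. ML351 thus went with a lower level without cytokines (-0.28) and a higher one with them (0.34), a difference of 0.62 (adjusted p = 0.030). For the other genes that changed with cytokines present, the data do not show that the effect of ML351 differs between both backgrounds. The 202 genes were selected on a contrast that is part of this difference, so unadjusted p-values for it are not counted among them. Cyp1a1 had an adjusted p of 0.37 for it, Npas4 0.61 and Vwf 0.24.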

How the data were processed

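RNA was sequenced from cultured mouse islets, 12 libraries in 4 groups of 3, and the deposited values are whole counts of reads per gene symbol for each library, not normalized by the authors. Per the submitters' processing notes, FastQC, STAR, featureCounts, Subread and DESeq2 were used with the mouse build mm10, with no versions or roles given. The SMARTSeq v4 kit, per the labels' protocols, gave libraries that are not stranded, so a gene and an overlapping or antisense partner cannot be told apart. The annotation used for counting is not given in the sources used here.

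Changes were tested with edgeR 4.0.16 in R 4.3.3 (TMM scaling, filterByExpr by group, robust glmQLFit and glmQLFTest) on the counts of all 12 libraries with a mean per group. Benjamini-Hochberg adjustment ran over all 14089 genes, with a call under 0.05. The SE was taken from the log2 fold change and its F statistic, as their ratio after taking the root of F. CPM were computed on TMM-scaled totals, and are given as mean ± SD over 3 libraries. Totals of 20208286 to 27193026 counts per library make counting error small except for genes near 0, for which Poisson intervals are given. In no pair of libraries of a group did the counts agree within sampling noise, with a lowest chi-square per degree of freedom of 4.16. Whether replicate numbers pair the libraries was checked by the correlation of deviations from group means. The scripts were tested on simulated counts.

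The comparison, the 41 gene lists (745 of 795 members measured) and the naming rule were chosen with earlier results of these data known. The rule named the 12 largest rises and falls among genes called without overlap whose average log2 CPM reached 3, passing over unnamed models and Y-linked genes, up to 4 genes per list with the smallest p, and a fixed set of islet and stress genes. Lists are described by counts and medians, without a set test. Alternatives were DESeq2 1.42.0, its size factors, limma-voom (limma 3.58.1), other filters, a fit without robust estimation, the replicate number as a block, the acinar level as a covariate, another scaling, the 6 libraries alone, and each library left out. Coordinates are from GENCODE M21 on GRCm38 (13589 symbols matched); promoters are from RefSeq on GRCm38.p6, found for 148 of the 202 called genes. Some genes are not analysed here.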

Additional observations from a re-analysis of the deposited data

Results flagged for a closer look

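The effect of ML351 on Ankrd10 differed between islets with and without cytokines by 0.62 on the log2 scale (0.34 with cytokines and -0.28 without, edgeR adjusted p = 0.030), by a test of the difference itself. All 3 combination libraries were above all 3 cytokine libraries, and all 3 ML351 libraries below all 3 vehicle libraries. The adjusted p over the alternatives ran from 1.3e-06 with DESeq2 to 0.34 with the replicate block, and it was above 0.05 with the acinar covariate (0.24) and without vehicle replicate 1 (0.14) or 4 (0.16), ML351 replicate 1 (0.17), 2 (0.15) or 3 (0.054), cytokine replicate 1 (0.12), 3 (0.066) or 4 (0.058), or combination replicate 1 (0.099) or 2 (0.10).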

How the results depend on the processing

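For cytokines plus ML351 against cytokines, the count of 202 called genes (91 higher, 111 lower) became 527 (174 and 353) with DESeq2, 110 (47 and 63) without robust estimation, 53 (19 and 34) with the replicate block, 7 (2 and 5) with the acinar covariate and 59 (18 and 41) with only the 6 libraries. Leaving out 1 library gave 54 to 236 genes, 23 to 95 higher and 29 to 141 lower. The count stayed within 1.5 times of 202 with the size factors of DESeq2 (213), limma-voom (221), an average CPM of at least 1 (234), no filter (202) and a scaling without acinar and insulin genes (212). None of the 202 genes changed sign in any of the 22 alternatives that gave it a value, which were fewer than 22 for Npas4 (20) and for Oprl1 (19). For ML351 against vehicle the 5 called genes became 110 with DESeq2, 9 with limma-voom, 16 with 6 libraries, and 0 with the size factors of DESeq2, without robust estimation, with the replicate block or with the acinar covariate, and 0 to 17 with 1 library left out. For the interaction the 1 called gene became 58 with DESeq2, 0 with the block or the acinar covariate, and 0 to 1 with 1 library left out. The cause of these shifts was not tested. The deviations from the group means did not show a pairing of libraries by replicate number, but with 3 libraries per group they cannot exclude it. Over 13 pairs of the same number these deviations correlated at -0.38 to 0.20, with 2 pairs over 0.1. The pairs of cytokine and combination libraries, numbers 1 and 4, were at -0.05 and -0.07. Of the genes followed one by one, the 104 called ones kept their sign throughout, and of the 80 others 31 were called in at least 1 alternative and 13 reached 0 or the opposite sign, among them Ins1, Pdx1, Mafa, Gcg, Cxcl10, Gpx1, Hmox1 and Nqo1. Depth limits genes near 0 counts, such as Vwf and Npas4, to the intervals given.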
